A study of Mus musculus with 6 samples.

Results

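Xkr6, Slc29a4, Urah, Tmem63c, Klf17 and S100g are 6 mouse genes whose signal was raised in newborn testes with a germ cell knockout of Sin3a (VSKO) over hemizygous testes (HEMI). They were chosen by that difference, and they are 6 of the 24552 genes tested. All 9 probes that carry their names were used. The others were found under their current names, while Urah is called 1190003J15Rik on the array and was found through its RefSeq accession.

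RNA of whole testes from male mice of the FVB.129/Sv mixed strain at postnatal day 0 was measured on 1-colour arrays, with 2 animals and 2 arrays in each of 3 genotypes. The VSKO genotype was Vasa-cre;Sin3a deleted/floxed, the HEMI genotype Vasa-cre;Sin3a deleted/+ and the WT genotype Vasa-cre;Sin3a +/+. Every animal therefore had the Cre, driven by the germ cell gene Ddx4 (Vasa), and both VSKO and HEMI mice also carried a Sin3a allele listed as deleted. The floxed allele is removed where the Cre acts, in germ cells, while the somatic cells of the testis were in the sample as well. The 6 arrays lay on 1 slide with 1 scan time. VSKO filled columns 1 and 2 of row 1, HEMI columns 3 and 4 of that row, and WT columns 1 and 2 of row 2, so slide position and genotype cannot be told apart.

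Sin3a is a scaffold that brings histone deacetylases to transcription factors, and its complex is known mainly for repressing genes. The chosen genes do not form one pathway. Xkr6 belongs to the XK family of membrane proteins, some of which scramble phospholipids, Slc29a4 is the plasma membrane monoamine transporter, and Urah hydrolyses 5-hydroxyisourate in the breakdown of urate. Tmem63c belongs to a family of osmosensitive and mechanosensitive cation channels, Klf17 is a zinc finger transcription factor described in mouse germ cells, and S100g is calbindin-D9k, a calcium-binding protein of vitamin D-responsive epithelia.

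Each probe is a 60-base sequence, and for 6 of the 9 the 5′ stretch of 30 bases is printed to show which part of the transcript was read. In the S100g pair the capitals mark bases that both probes hold, and the other probes are in lower case. The array's coordinates are on mm9.
Xkr6 (A_55_P2154450, chr14:64438782-64438841, plus strand): catccccttcagataagctttctttccagt
Slc29a4 (A_55_P2048119, chr5:143198384-143198443, plus strand): cctgtctacctgtgtgttctctgactaccg
Tmem63c (A_51_P204387, chr12:88430848-88430907, plus strand): cctctgatcaaggggcagctggaacaagcc
Klf17 (A_65_P18756, chr4:117429264-117429300, minus strand): gtgaccagagctgatcccttccttgtagaa
S100g (A_55_P2111163, chrX:159399938-159399997, minus strand): gctgtgcgattatgATACATACTGTTAATA
S100g (A_55_P2013236, chrX:159399924-159399983, minus strand): ATACATACTGTTAATAAAGCAAGTTCGGAG
The array's coordinates for the Klf17 probe cover less than its full length. The S100g probes are offset by 14 bases and share 46, so they do not read the transcript independently. The remaining probes were A_55_P1971006 and A_55_P2174582 for Urah and A_51_P271068 for Klf17.

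On the arrays, 59.2% to 64.5% of the non-control spots were well above background, none was saturated, and Pearson's r across genes between animals of a group was 0.987 to 0.992. With 2 animals a group, the number of arrays limits the precision. Levels are log2 signals over the array's 75th percentile, and differences are on the same log2 scale, with the standard error (SE) of a limma fit over all genes. A gene is said to pass where its Benjamini-Hochberg adjusted p was under 0.05. Sin3a stood at 0.61 and 0.38 in VSKO, 0.89 and 0.89 in HEMI, and 1.09 and 1.11 in WT. Its difference was -0.39 ± 0.13 (SE) between VSKO and HEMI (limma adjusted p = 0.522) and -0.60 ± 0.13 between VSKO and WT (limma adjusted p = 0.134). Whether this probe lies in the deleted part of the gene is not given in the sources used here, so it is no check of the genotype. The germ cell markers Ddx4 and Dazl differed by -0.34 ± 0.17 (limma adjusted p = 0.820) and -0.09 ± 0.18 (limma adjusted p = 0.999) between VSKO and HEMI. Over the 16 germ cell markers the median difference was -0.09 from HEMI and -0.45 from WT, and 1 of 16 lay above 0 against WT. In whole testis, fewer cells of a type and less RNA per cell cannot be told apart. Nanos2, a regulator of male germ cell development, was not well above background in VSKO, and was at least 11.5-fold lower there than in HEMI (limma adjusted p = 0.0576) and at least 7.14-fold lower than in WT (limma adjusted p = 0.0426). Dnmt3l, a cofactor of DNA methylation in germ cells, differed from WT by -1.76 ± 0.18 in VSKO (SE, limma adjusted p = 0.0314) and by -2.19 ± 0.18 in HEMI (SE, limma adjusted p = 0.0428). Without either WT replicate no gene of the array passed in the comparisons with WT of VSKO or of HEMI (limma; unadjusted p-values were under 0.05 for 2619 and 2816 genes between VSKO and WT, and for 2191 and 2393 between HEMI and WT).

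The transporter Slc29a4 had the brightest signals of its probe in the knockout: 1.22 and 1.13 in VSKO, -0.74 and -0.59 in HEMI, and -0.58 and -0.33 in WT. Both VSKO arrays lay above the other 4, and the 2 HEMI arrays lay below the 2 WT arrays by less than the WT arrays differed from each other. In processed intensity units these were 1991 and 1520 in VSKO, 451 and 525 in HEMI, and 436 and 594 in WT. VSKO exceeded HEMI by 1.84 ± 0.14 (SE), or 3.57-fold.

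Urah, the urate pathway enzyme, stood at 0.67 and 0.91 in VSKO, -0.98 and -1.0 in HEMI, and -0.40 and -0.58 in WT on its brighter probe. The dimmer probe gave -0.20 and -0.07 in VSKO, -1.98 and -1.88 in HEMI, and -1.43 and -1.63 in WT. On both probes the 3 genotypes did not overlap, with VSKO on top and HEMI at the bottom. VSKO exceeded HEMI by 1.78 ± 0.14 (SE), or 3.44-fold, on the brighter probe and by 1.80 on the dimmer one.

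Xkr6 was dim in every animal, at -2.43 and -2.69 in VSKO, -4.85 and -4.86 in HEMI, and -4.30 and -4.04 in WT. The order of the genotypes was that of Urah, again without overlap. Its mean spot intensity before background subtraction was 196 and 142 in VSKO, 57.9 and 55.7 in HEMI, and 57.6 and 69.6 in WT. On that raw scale HEMI and WT overlapped. VSKO exceeded HEMI by 2.30 ± 0.16 (SE), or 4.92-fold.

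For the channel gene Tmem63c the levels were -2.57 and -2.71 in VSKO, -4.02 and -4.04 in HEMI, and -3.18 and -3.07 in WT. VSKO exceeded HEMI by 1.39 ± 0.12 (SE), or 2.62-fold, and the WT arrays lay nearer to VSKO than to HEMI.

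The transcription factor gene Klf17 gave -3.17 and -3.11 in VSKO, -4.53 and -4.60 in HEMI, and -3.94 and -3.80 in WT on A_65_P18756. That probe starts at base 3311 of the transcript as the array numbers it. The other starts at base 1936 and gave -3.94 and -3.57 in VSKO, -4.63 and -4.32 in HEMI, and -3.74 and -3.95 in WT. The probes disagree: VSKO stood above WT without overlap on the first, while the VSKO and WT arrays overlapped on the second. VSKO exceeded HEMI by 1.43 ± 0.12 (SE), or 2.69-fold, on the first probe and by 0.72 on the second.

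S100g, the calcium-binding protein gene, had the widest spread between VSKO animals of the 6. Its brighter probe gave -2.59 and -1.45 in VSKO, -4.25 and -4.93 in HEMI, and -5.29 and -5.89 in WT, where it was not well above background on either array. The dimmer probe gave -4.62 and -3.19 in VSKO, -4.35 and -5.16 in HEMI, and -6.18 and -7.30 in WT. HEMI stood between the other genotypes here, not below WT. VSKO exceeded HEMI by 2.57 ± 0.46 (SE), or 5.92-fold, on the brighter probe and by 0.85, with overlapping arrays, on the dimmer one. VSKO replicate 2, the higher animal for S100g, also had the highest summed level of the erythroid markers, at 109 and 325 in VSKO, 93.4 and 98.5 in HEMI, and 113 and 114 in WT, as multiples of the 75th percentile over the 4 of 6 markers tested. The part of erythroid RNA in the S100g values was not tested.

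**Figure D1:**
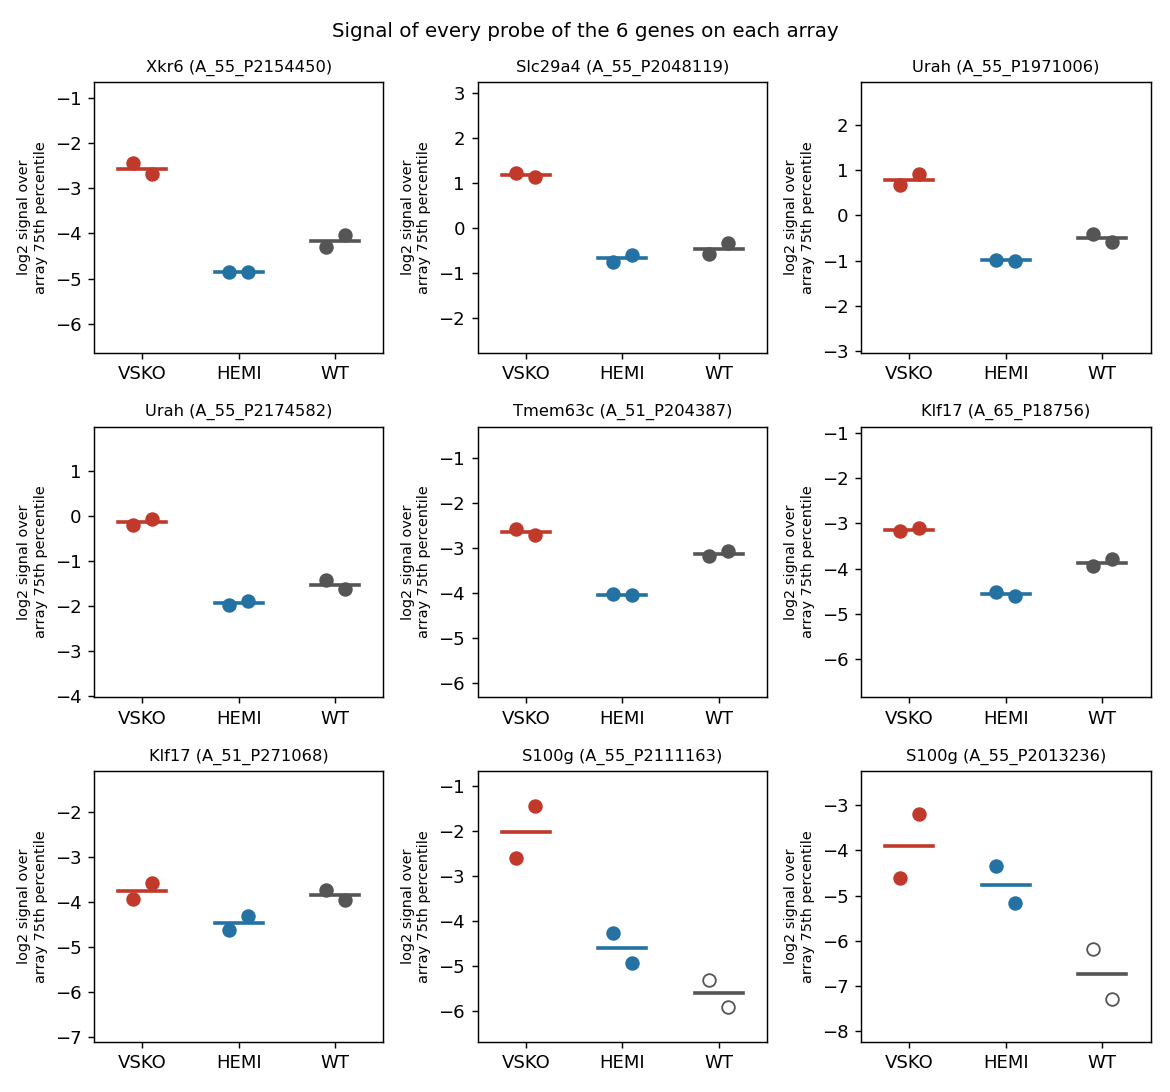
Level of each of the 9 probes (vertical axis, log2 signal over the array's 75th percentile) on the 2 VSKO, 2 HEMI and 2 WT arrays; points are animals, bars are group means, and open points are arrays where the probe was not well above background. The VSKO points lie above all HEMI and WT points for 7 of 9 probes, the exceptions being the second Klf17 probe and the dimmer S100g probe.

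In all, both VSKO arrays lay above the other 4 for 6 of 6 genes on the probe used, and for 7 of 9 probes. Over all genes tested 8.57% had this order, and since the VSKO and HEMI arrays chose the genes, nothing is read from the count. Among the 6, 5 belonged to the 25 genes that passed as higher in VSKO than in HEMI, which are 0.102% of the genes tested. Of the 25, 18 had an official symbol and no predicted or clone name, and 1 was an unnamed probe that overlaps the Slc29a4 probe. S100g did not pass. No gene of the array passed, these 5 included, in a fit of VSKO and HEMI alone or with the replicate number as a block (limma; unadjusted p-values were under 0.05 for 1738 and 1872 genes). Leaving out either WT array repeats the fit of VSKO and HEMI alone, since a lone WT array adds nothing to the estimate of the spread. At the edge of the threshold, among genes with an official symbol that were higher in VSKO, the last inside it were Tmem63c at 1.39 ± 0.12 (SE) and the antiviral gene Oas3, and the first outside it were Pgpep1l and Tmsb15a. Oas3, Pgpep1l and Tmsb15a were not well above background on either HEMI array, and were at least 2.46-fold, 1.19-fold and 2.06-fold higher in VSKO. By size of the difference alone, S100g ranked 66 and Xkr6 84 of 24552, Slc29a4 143, Urah 152, Klf17 246 and Tmem63c 258. A difference of at least 1 was found for 1.94% of all genes.

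**Figure D2:**
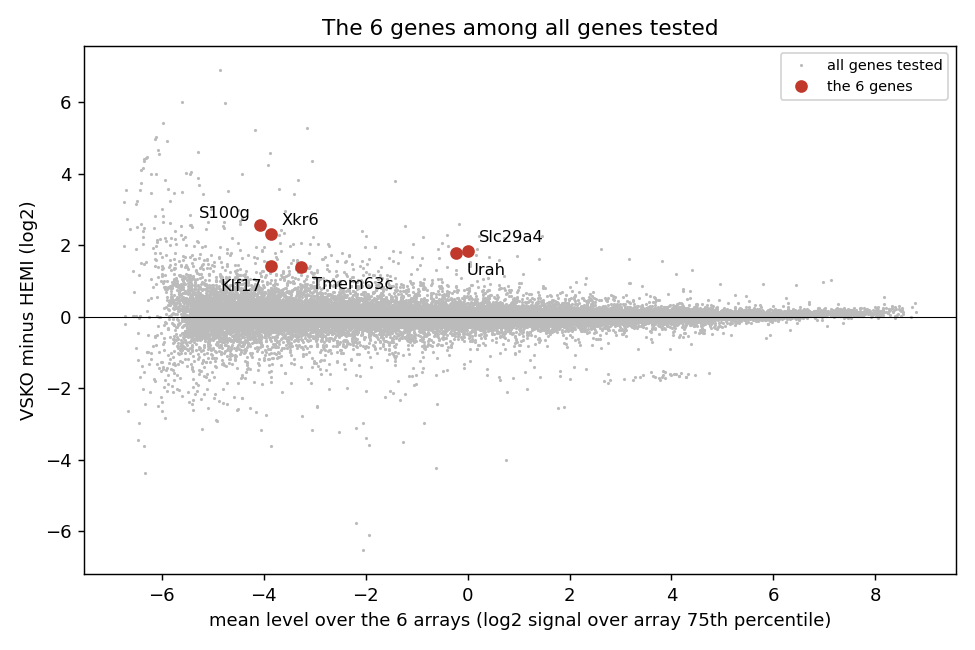
VSKO minus HEMI difference (vertical axis, log2) against the mean level over the 6 arrays (horizontal axis, log2 signal over the array's 75th percentile) for the 24552 genes tested in grey and the 6 genes in red. Slc29a4 (1.84) and Urah (1.78) stand where the grey cloud is narrower than it is around S100g (2.57), Xkr6 (2.30), Klf17 (1.43) and Tmem63c (1.39).

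Set against WT, the difference of VSKO was smaller than against HEMI for 5 genes and larger for S100g. Slc29a4 was higher in VSKO than in WT by 1.63 ± 0.14 (SE, 3.09-fold, limma adjusted p = 0.0276). Xkr6 was higher by 1.61 ± 0.16 (SE, 3.05-fold, limma adjusted p = 0.0308), and Urah by 1.28 ± 0.14 (SE, 2.43-fold, limma adjusted p = 0.0386). S100g was at least 9.52-fold higher (difference 3.57 ± 0.46, limma adjusted p = 0.0491). On each WT array the bound used the dimmest signal counted as well above background, or the measured signal where that was higher, as on WT replicate 1. That bound holds for the processed signal alone: with normexp background correction the difference of S100g from WT was 1.63 ± 0.29 (SE), which is below it. Adjusted over all probes instead of all genes, the limma p of the brighter S100g probe was 0.0542, which does not pass. On its dimmer probe the bound was 2.67-fold, with a limma adjusted p over all probes of 0.146, where 0.277% of all probes passed as higher. Tmem63c (0.49 ± 0.12, 1.40-fold, limma adjusted p = 0.175) and Klf17 (0.73 ± 0.12, 1.66-fold, limma adjusted p = 0.0807) did not pass. With normexp the difference from WT was 0.87 for Xkr6, 0.31 for Klf17 and 0.23 for Tmem63c, against 1.51 for Slc29a4 and 1.20 for Urah.

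Thus 4 of 6 genes passed as higher in VSKO than in WT, against 0.346% of all genes tested. The VSKO arrays took part in choosing the genes, so these p-values are not independent evidence. The calls were also lost easily. None of the 6 passed with no filter on dim probes, in a fit of VSKO and WT alone, or with the replicate number as a block. Leaving out either HEMI array repeats the fit of VSKO and WT alone. At an unadjusted p under 0.05, which 14.7% of all genes reached in either direction in the main fit, 6 of 6 passed in each of these fits. S100g alone was also lost with quantile scaling (adjusted p = 0.0505), with normexp background correction (0.0560) and with the mean of its probes (0.0808), and over its alternatives the adjusted p ran from 0.0192 to 0.204.

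Between HEMI and WT, animals that differ by 1 Sin3a allele, 5 of the 6 genes were lower in HEMI with no overlap of the arrays, as were 28.4% of all genes tested. The differences were -0.69 ± 0.16 for Xkr6, -0.21 ± 0.14 for Slc29a4, -0.50 ± 0.14 for Urah, -0.90 ± 0.12 for Tmem63c and -0.70 ± 0.12 for Klf17 (SE). S100g was higher in HEMI by at least 1.61-fold (difference 1.00 ± 0.46, limma adjusted p = 0.464), a bound that again holds for the processed signal alone, the difference with normexp being 0.26 ± 0.29 (SE). None passed, where 0.118% of all genes did, and the limma adjusted p of the others ran from 0.0940 for Tmem63c to 0.610 for Slc29a4. An unadjusted p under 0.05 was reached by 4 of 6, and by 12.4% of all genes. Low values in HEMI also favoured the choice of a gene, so these counts are a description. For Tmem63c the step between HEMI and WT (-0.90) was larger than that between VSKO and WT (0.49), and for Klf17 the steps were -0.70 and 0.73 on the probe used. On the other Klf17 probe they were -0.63 and 0.09, and with both probes averaged -0.66 and 0.41. For Slc29a4 most of the difference lay between VSKO and WT. These steps were not compared with each other by a test.

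The size of the difference from HEMI depended on the background correction for the dim genes. With normexp on the raw spot intensities, the VSKO minus HEMI difference was 1.14 for Xkr6, 0.83 for Tmem63c, 0.70 for Klf17 and 1.38 for S100g. For the brighter pair it was 1.73 for Slc29a4 and 1.62 for Urah. With the probes of a gene averaged, S100g stood at 1.71 and Klf17 at 1.07. No alternative that could change the difference turned the direction of any of the 6.

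**Figure D3:**
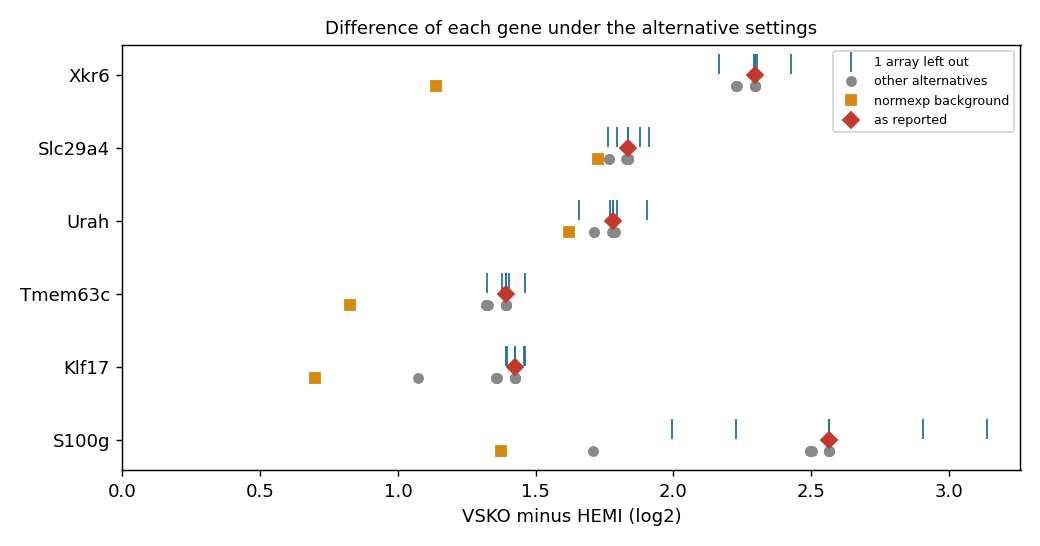
VSKO minus HEMI difference (horizontal axis, log2) of each gene as reported (red diamonds), with 1 array left out (blue ticks), with normexp background correction (orange squares) and under the other alternatives (grey points). The orange squares stand apart for Xkr6 (1.14 against 2.30), S100g, Klf17 and Tmem63c, and close to the reported value for Slc29a4 and Urah.

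The profiles of the 6 genes over the arrays were compared by the Euclidean distance of log2 levels centred on each gene's mean, over 6 arrays. Tmem63c and Klf17 were the nearest pair, at 0.30, followed by Slc29a4 with Urah at 0.55 and Xkr6 with Slc29a4 at 0.57. S100g stood 2.30 to 3.31 from the others. A distance can be read against a gene's own spread around its mean, which was 1.42 for Tmem63c, 1.43 for Klf17, 1.85 for Urah, 2.02 for Slc29a4, 2.37 for Xkr6 and 3.82 for S100g.

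Among all named genes, the nearest to Xkr6 were Tekt1 at 0.47, Ccdc184 at 0.50 and Tfr2 at 0.54. Those nearest to Slc29a4 were Col22a1 at 0.32, Nlrp2 at 0.42 and Dkkl1 at 0.44. For Urah they were Morn5 at 0.36, Cd6 at 0.38 and Ccdc184 at 0.40. Zswim5 and Ccdc40 were near both Tmem63c (0.29 and 0.30) and Klf17 (0.30 and 0.33), with Lrrc23 at 0.31 from Tmem63c and Krt71 at 0.33 from Klf17. Hoxb8, at 0.57, was nearest to S100g, with Olfr615 at 0.93 and T2 at 1.04. Tekt1, for example, which encodes a filament protein of cilia and flagella, had 0.88 and 0.89 in VSKO, -1.28 and -1.52 in HEMI, and -0.53 and -0.82 in WT. Hoxb8, a body axis patterning gene, had 0.23 and 1.19 in VSKO, -1.34 and -2.30 in HEMI, and -2.53 and -2.57 in WT. These genes were picked for their likeness, so their values are a description.

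No relative or pathway partner of the 6 genes passed between VSKO and HEMI. Of 116 genes on 7 lists, 102 were tested, and 0 passed between VSKO and HEMI by limma, with 9 at an unadjusted p under 0.05. In that comparison 0.143% of all genes passed in either direction, and 7.69% had an unadjusted p under 0.05. Their median difference was 0.06, against 0.02 over all genes tested, and 65 of 102 lay above 0. With median scaling, the authors' table, normexp or an intensity trend, 2 passed. By list the median was 0.08 over 15 S100 genes, 0.04 over 13 genes of the vitamin D response and calcium transport, 0.16 over 16 Kruppel-like factors, 0.08 over 15 nucleoside and organic cation transport genes, 0.06 over 16 genes of the XK family and phospholipid scrambling, 0.02 over 14 mechanosensitive channel genes and 0.06 over 13 genes of purine breakdown.

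Against WT, 3 of the 102 passed as higher in VSKO and 0 as lower, where 0.965% of all genes passed. The S100 genes S100a9 and S100a8 form calprotectin, an abundant calcium-binding protein of neutrophils. S100a9 had 3.87 and 4.0 in VSKO, 2.27 and 1.82 in HEMI, and 1.82 and 1.88 in WT, so that VSKO exceeded WT by 2.09 ± 0.18 (SE, limma adjusted p = 0.0276). S100a8 had 2.15 and 2.26 in VSKO, 0.70 and 0.31 in HEMI, and 0.14 and 0.28 in WT, a difference from WT of 2.00 ± 0.17 (SE, limma adjusted p = 0.0276). Both VSKO arrays were above the other 4 for each. From HEMI they differed by 1.89 ± 0.18 and 1.70 ± 0.17 (limma adjusted p = 0.0587 and 0.0594).

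A list of 10 neutrophil genes, drawn up after these values were seen, had 9 genes tested and Cxcr2 not above background on any array. None of the 9 passed in either comparison with VSKO. The median difference of the 9 was 0.20 from HEMI and 1.33 from WT, with 7 and 6 of 9 above 0. Its granule genes were uneven: VSKO minus HEMI was 2.45 ± 0.48 for Ngp, 2.04 ± 0.47 for Ltf, 1.95 ± 0.30 for Retnlg and 1.65 ± 0.27 for Camp, but -0.48 ± 0.47 for Mpo and -1.02 ± 0.17 for Mmp9. The summed level of the 9 was 52.5 and 39.8 in VSKO, 47.4 and 38.3 in HEMI, and 44.8 and 36.2 in WT, in multiples of the 75th percentile. Most of that sum came from the receptor gene Csf3r, at 5.54 and 5.04 in VSKO, 5.38 and 5.12 in HEMI, and 5.33 and 5.0 in WT on the log2 scale. The part of neutrophil RNA in the S100a8 and S100a9 values was not tested.

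The third gene that passed was Slc2a9, a urate transporter on the purine list with Urah. It had -2.86 and -2.77 in VSKO, -3.10 and -3.33 in HEMI, and -4.29 and -4.29 in WT, and VSKO exceeded WT by 1.48 ± 0.13 (SE, limma adjusted p = 0.0276). HEMI lay nearer to VSKO here, unlike for Urah. Of these 3 calls none was left with no filter on dim probes, and with 1 array left out 0 to 2 genes of the lists passed. Uox, which makes the substrate of Urah, was well above background on 1 VSKO, 2 HEMI and 0 WT arrays. Its VSKO minus HEMI difference was -0.86, while its mean level was -5.29 in VSKO and -6.51 in WT, too close to background for a fold. It passed in neither comparison. Of the lists with no gene that passed, the largest differences between VSKO and HEMI among the transporters, as measured, were those of the dopamine transporter gene Slc6a3 and the vesicular monoamine transporter gene Slc18a1. Slc6a3 was not well above background in HEMI and was at least 3.43-fold higher in VSKO (difference 1.78 ± 0.40). Slc18a1 was not well above background in VSKO and was so on only 1 HEMI array, so its difference of -1.25 ± 0.58 gives no bound. The organic cation transporter gene Slc22a2, well above background in both, differed by 0.99 ± 0.25. In the vitamin D list they were Cyp24a1, which breaks down active vitamin D, at 1.09 ± 0.38, and the calcium-sensing receptor Casr at 0.83 ± 0.25. Cyp24a1 was well above background on 2 VSKO, 1 HEMI and 0 WT arrays, so the size of its difference is uncertain. The channel list had Trpv4 at -0.59 ± 0.20 and Tmc2 at 0.53 ± 0.20, the Kruppel-like factors Klf4 at 0.50 ± 0.32 and Klf2 at 0.35 ± 0.67, and the XK list Xkr4 at -0.26 ± 0.27 and Ano6 at 0.24 ± 0.13 (SE throughout). The XK family genes Xkr7 and Xkr9 and the S100 gene S100a7a were not above background on any array.

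**Figure D4:**
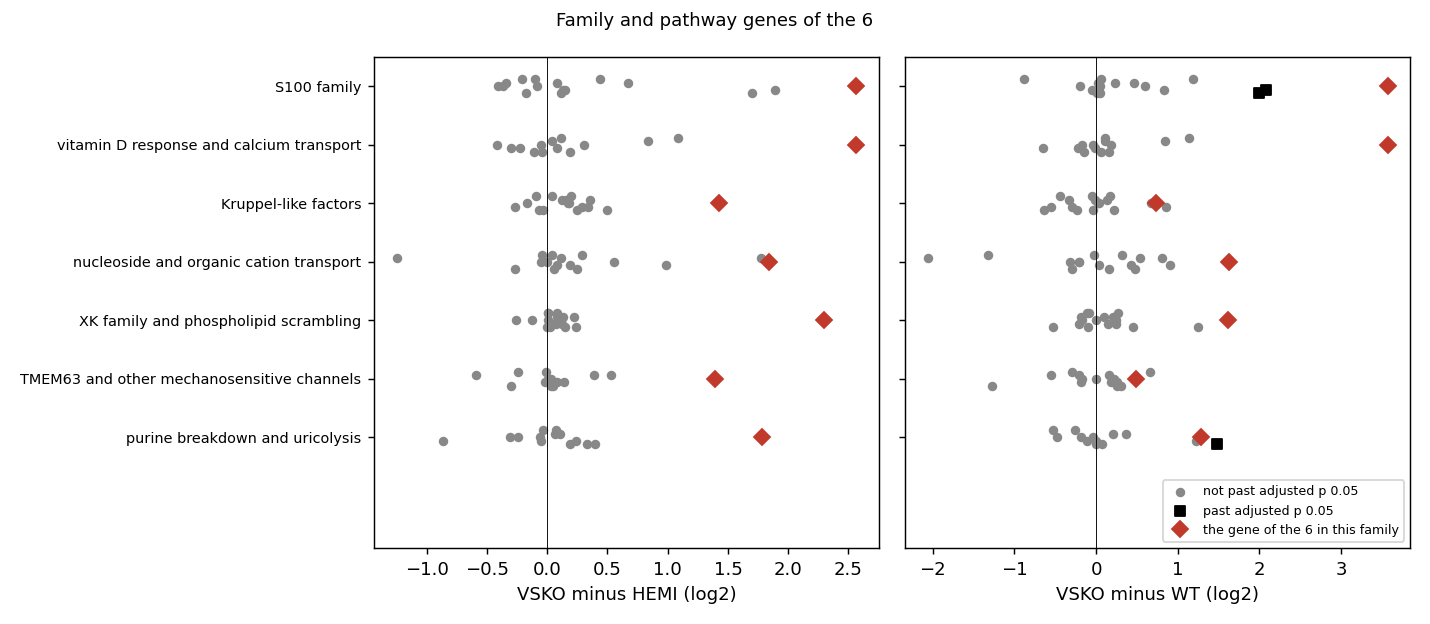
Differences (horizontal axes, log2) of VSKO from HEMI on the left and from WT on the right for the 102 family and pathway genes (grey circles, black squares where the adjusted p was under 0.05) and the gene of the 6 that belongs to each list (red diamonds). Most grey points lie near 0; on the right the black squares are S100a9 (2.09), S100a8 (2.00) and Slc2a9 (1.48).

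The genes around the 6 on their chromosomes were examined by the array's own mm9 coordinates. Within 500 kb there were 118 other tested entries, counted by name. They include predicted genes, clones and unnamed or region probes, some beside the Slc29a4 probe, so the count is not one of separate genes. Their median VSKO minus HEMI difference was -0.02, with a range of -2.52 to 2.03, and 54 lay above 0. One of them passed, an unnamed probe whose position overlaps that of the Slc29a4 probe, so that it is no independent neighbour (1.73 ± 0.15, SE, limma adjusted p = 0.0458). The nearest named genes of Xkr6 were Mtmr9 at 0.03 ± 0.13 and Pinx1 at -0.29 ± 0.37. Those of S100g were Syap1 at -0.10 ± 0.12 and Ctps2 at -0.03 ± 0.12. Urah lay between Zfp941 (-0.14 ± 0.12) and Odf3 (-0.31 ± 0.13), and Klf17 between Dmap1 (0.15 ± 0.11) and Ccdc24 (-0.65 ± 0.15). For Slc29a4 the array placed Wipi2 (0.06 ± 0.12) on 1 side and the Tff1 probe on the other. These placements are the array's own and were not checked against a genome, so Tff1 may not be a true neighbour. Tff1 was not well above background in VSKO and was at least 1.76-fold lower there (difference -2.26 ± 0.43, limma adjusted p = 0.184). None of these 10 passed. Both nearest neighbours of Tmem63c lay above 0, and neither passed. Zdhhc22, at 1.04 ± 0.60, was high on 1 VSKO array only, with -0.98 and 0.91 in VSKO, -1.19 and -0.95 in HEMI, and -1.05 and -0.97 in WT. Ngb, the neuroglobin gene 8.18 kb away, stood at 0.96 ± 0.21 (limma adjusted p = 0.254). Ifitm6, 178 kb from Urah, stood at 2.03 ± 0.20 (limma adjusted p = 0.0595).

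**Figure D5:**
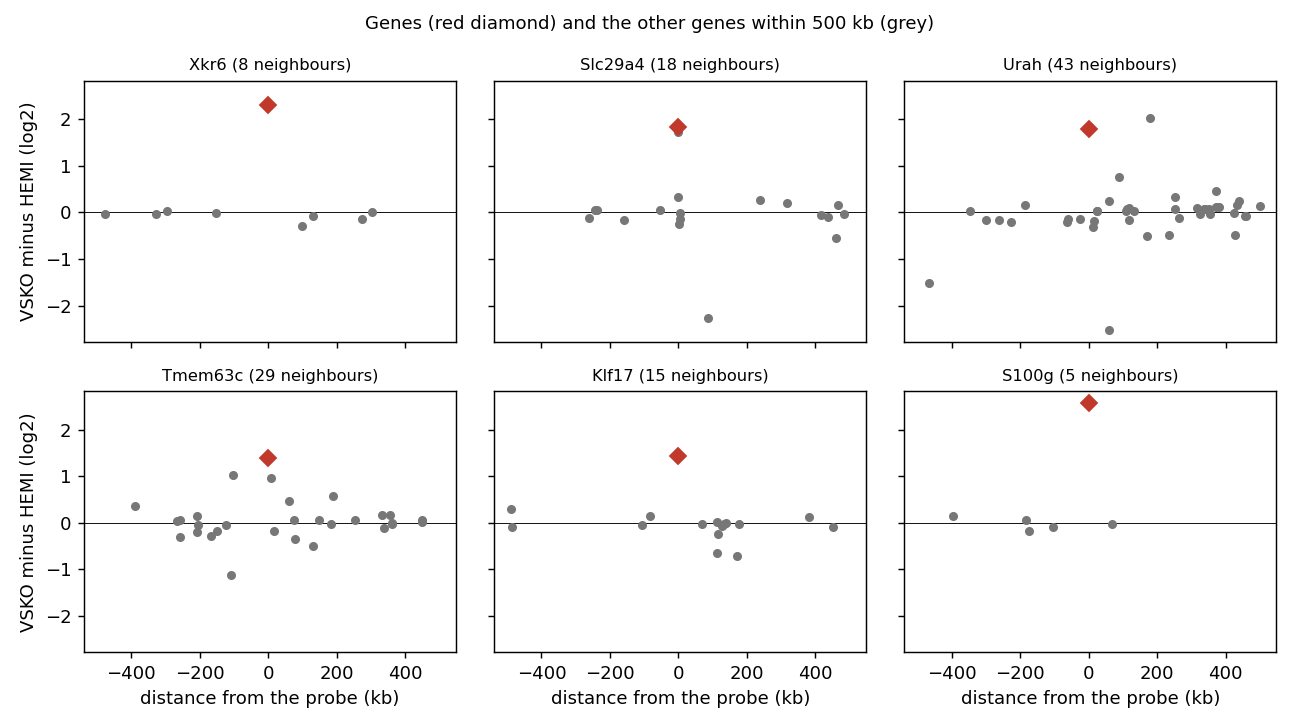
VSKO minus HEMI difference (vertical axis, log2) of each of the 6 genes (red diamonds) and of the other tested genes and unnamed probes within 500 kb (grey points) against the distance from the gene's probe in kb (horizontal axis). Most grey points lie near 0; the point beside Slc29a4 at 1.73 is the overlapping probe, and the point above Urah is Ifitm6 at 2.03.

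RefSeq promoter windows (GRCm38.p6) were held for 5 of the 6 genes, 7 windows in all, and none for Xkr6. The bases upstream of the start are printed for the windows with the highest and the lowest GC content, with capitals for matches to GGGCGG (the GC box), CCACCC (the CACC box of Kruppel-like factors) or TATAAA (the TATA box) on either strand, some of which overlap.
Slc29a4 (chr5:142701851-142702100, plus strand): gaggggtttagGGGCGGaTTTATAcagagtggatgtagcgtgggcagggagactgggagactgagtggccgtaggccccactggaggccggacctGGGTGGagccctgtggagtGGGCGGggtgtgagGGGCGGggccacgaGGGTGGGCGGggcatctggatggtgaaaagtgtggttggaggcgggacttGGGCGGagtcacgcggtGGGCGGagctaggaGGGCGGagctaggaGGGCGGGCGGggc
S100g (chrX:162964600-162964849, minus strand): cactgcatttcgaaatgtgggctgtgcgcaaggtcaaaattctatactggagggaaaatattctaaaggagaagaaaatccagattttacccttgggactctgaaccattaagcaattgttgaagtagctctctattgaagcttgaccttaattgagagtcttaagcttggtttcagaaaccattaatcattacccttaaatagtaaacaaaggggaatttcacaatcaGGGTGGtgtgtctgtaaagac
The whole Slc29a4 window had a GC content of 70.0%, 9 GC boxes, 2 CACC boxes and 1 TATA box, and the S100g window had 41.0%, 0 GC boxes, 1 CACC box and 1 TATA box that begins at the start site. Over all 32851 windows the median GC content was 52.7%. A GC box was found in 35.7% of them, a CACC box in 31.5% and a TATA box in 13.6%. The E-box CACGTG, a motif of MYC and MAX family factors, was in 0 of the 7 windows and in 7.15% of all windows. These matches are descriptions of letters and not of binding.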

How the data were processed

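The deposited array files hold, per the file headers, a linear processed intensity for each spot, already corrected for background by Agilent Feature Extraction (modules 10.7.3.1; the submitters' processing notes name 8.5.1.1), with the mean spot and local background intensity. Per the file headers they also hold 0 or 1 quality flags (unit: other). The authors' series table, also an intensity, matched that intensity over its array's median to 0.00105% across 59305 spots that were not controls.

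From the log2 processed intensity the array's 75th percentile was subtracted, outlier spots were dropped, and repeated spots were averaged per probe. Kept were 34365 of 55681 distinct probes, those that some genotype showed well above background on each of its arrays. The brightest probe of a gene on average stood for it, which gave 24552 genes, counted by name with unnamed probes included. Names were updated through a RefSeq table (GRCm38.p6, names only), by accession for 26762 and 101 probes, with 3752 symbols and 25066 other names kept. One model of all 6 arrays was fitted (limma 3.58.1, R 4.3.3, a mean per genotype, 3 residual and 2.25 prior degrees of freedom), with Benjamini-Hochberg adjustment over all genes, or over 34335 probes for single probes. The fit was tested on simulated data.

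The 6 genes and the lists were chosen with earlier results of these data known. Named beside the 6 are the 3 nearest profiles of each, genes of a list that passed (otherwise the 2 with the largest VSKO minus HEMI difference), the nearest gene on each side, Sin3a and markers. Genes named outside this rule (Oas3, Pgpep1l, Tmsb15a, Uox, Slc22a2, Ifitm6, Nanos2, Dnmt3l, the neutrophil and cilia genes) were chosen after their values were seen. Alternatives were other scalings, background corrections, filters, probe summaries and fits, and each array left out. The sequences of the Urah probes are not reported here.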

Additional observations from a re-analysis of the deposited data

How the results depend on the processing

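Of 16 alternatives (15 for S100g), none reversed a VSKO minus HEMI difference of the 6 genes. Several could not have done so. The 2-group fit, the replicate block, the intensity trend and leaving out a WT array change only its error, and the authors' table repeats median scaling. The 4 of the 6 that passed between VSKO and WT became 0 with no filter on dim probes, in a fit of the 2 groups alone and with the replicate number as a block, and 0 in each fit with 1 array left out. Genes that passed between VSKO and HEMI (35) numbered 74 with median scaling or the authors' table, 17 with quantile scaling, 5 with no filter, 15 with the filter on all 6 arrays, 0 in the 2-group fit and 0 with the block (limma; 1738 and 1872 at an unadjusted p under 0.05), and 0 to 41 with 1 array left out. Between VSKO and WT (237) they numbered 12 with no filter, 42 in the 2-group fit, 19 with the block, and 0 to 69. Between HEMI and WT (29) they numbered 55 with median scaling or the authors' table, 133 with normexp, 0 with no filter, 68 with the filter on all 6 arrays, 130 with an intensity trend, 4 in the 2-group fit, 0 with the block (limma; 5277 with no filter and 2794 with the block at an unadjusted p under 0.05), and 0 to 8. Of the 102 family genes, 2 passed between VSKO and HEMI with median scaling, the authors' table, normexp or the trend, and 1 between HEMI and WT with normexp. Between VSKO and WT (3) there were 0 with no filter, 0 with the block (limma; 23 and 19 at an unadjusted p under 0.05), and 0 to 2 with 1 array left out. The causes were not tested. Deviations of same-numbered arrays correlated at -0.04, -0.03 and -0.01, so no shared effect of the replicate number was seen in the levels. Whether same-numbered animals were paired is not given in the labels. No scaling moved the median of all genes by 0.1. Signal over background limits Xkr6, Tmem63c, Klf17 and S100g most, and S100g could not be tested with the filter on all 6 arrays.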

Other observations

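Markers of the cell types that a newborn testis sample can hold were summed as multiples of the array's 75th percentile. The 16 germ cell markers summed to 37.7 and 36.2 in VSKO, 35.9 and 40.4 in HEMI, and 42.5 and 46.1 in WT. Sertoli cell markers summed to 494 and 465 in VSKO, 430 and 530 in HEMI, and 511 and 518 in WT. Fetal Leydig cell markers summed to 113 and 115 in VSKO, 102 and 121 in HEMI, and 164 and 197 in WT, so that both VSKO and HEMI lay below WT. Markers of placenta, gut and kidney epithelium, tissues in which S100g is known to be made, summed to 2.85 and 2.92 in VSKO, 2.77 and 2.33 in HEMI, and 2.89 and 2.78 in WT, with Fabp1 not above background on any array. Skeletal muscle markers varied within groups, at 5.62 and 9.78 in VSKO, 7.24 and 20.9 in HEMI, and 21.1 and 6.38 in WT. No gene of these lists passed between VSKO and HEMI, with Nanos2 of the germ cell list nearest the threshold. Against WT, the steroid synthesis gene Cyp17a1 of the Leydig list was lower in VSKO, with a difference of -1.40 ± 0.16 (SE, limma adjusted p = 0.0426), beside Nanos2 and Dnmt3l of the germ cell list. In the other direction, 1 of 9 tested markers of mesonephric duct, epididymis and rete passed as higher in VSKO than in WT, where 0.346% of all genes did. The median difference of VSKO in that list was 0.21 from WT and -0.12 from HEMI, where 0 passed. Between HEMI and WT the median was 0.51, so the list was not raised in VSKO alone.

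A list of motile cilia genes was drawn up after Tekt1 and Ccdc40 were seen among the nearest profiles. Its 15 tested genes had a median VSKO minus HEMI difference of 0.18, against 0.02 over all genes tested, and 11 of 15 lay above 0. Only Tekt1 passed (2.28 ± 0.16, SE, limma adjusted p = 0.0347), where 0.102% of all genes passed as higher. It had prompted the list, so nothing is read from its call. Rsph1, part of the radial spoke head, stood at 0.84 ± 0.16 (limma adjusted p = 0.178). Foxj1, the transcription factor of ciliated cells, stood at 0.21 ± 0.17 (limma adjusted p = 0.987). Dnah5, an axonemal dynein gene, went the other way and was not well above background in VSKO. It was at least 1.67-fold lower there than in HEMI and at least 2.55-fold lower than in WT (difference from WT -1.49, limma adjusted p = 0.0301). The list summed to 20.2 and 21.3 in VSKO, 19.4 and 14.9 in HEMI, and 19.6 and 17.4 in WT.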
